A study of Mus musculus with 8 samples.

Results

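The genes described here are the ATF4 amino acid and endoplasmic reticulum (ER) stress response, 36 genes chosen by name and grouped by role. The choice was made with earlier results of these data known. Shares of these genes set beside shares of all genes are therefore description and no independent evidence. The 36 genes comprise 9 regulators, 9 enzymes of amino acid and one-carbon synthesis, 7 amino acid transporters, 6 stress effectors and 5 ER genes. All 36 were found among the 22017 gene names of the count tables. They were measured by RNA sequencing in 4T1 and TS/A, breast cancer lines that arose in BALB/c mice, each in 2 vector groups of 2 libraries, 8 libraries in all. The virus vector was either empty or expressed Gpr56 (gene symbol Adgrg1), a receptor of the adhesion class that binds type III collagen. All groups grew in RPMI with 10% FCS, and the design text places the transduced lines in culture with type III collagen for 72 h before RNA extraction. Sample titles contrast Emp_Control with Emp_ColIII within each line, whereas the sample characteristics contrast the empty with the Gpr56 vector, and the groups follow the characteristics. Vector and collagen culture therefore cannot be told apart from the labels. The labels do not say whether the libraries of a group stem from separate cultures or clones, so the p-values reflect the spread between these libraries alone, which may be technical.

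ATF4 is a transcription factor whose messenger RNA is translated more when a kinase that senses amino acid shortage, ER stress, haem shortage or double-stranded RNA phosphorylates the initiation factor eIF2α. It then binds, often with a C/EBP partner, to C/EBP-ATF response elements and induces genes that make, import and charge amino acids, together with feedback inhibitors and stress effectors. ER stress also acts through ATF6 and IRE1, which induce chaperones such as Hspa5 through other promoter elements, and tumour cells are known to depend on the amino acid arm for serine, asparagine and proline. Because translation controls ATF4 protein, the level of Atf4 messenger RNA is not a measure of its activity.

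The transduced gene was looked at first, as a check of the labels. In 4T1, Adgrg1 stood at 2.53 and 2.77 CPM (counts relative to library size) with the empty vector and at 90.5 and 100.1 CPM with the Gpr56 vector (log2 fold change 5.15, SE 0.11, edgeR adjusted p = 7.32e-14, quasi-likelihood test). In TS/A it stood at 34.8 and 16.3 CPM under the empty label and at 22.6 and 13.3 CPM under the Gpr56 label (log2 fold change -0.51, SE 0.41, edgeR adjusted p = 1). The gene thus separated the 4T1 groups but not the TS/A groups, which are called by their labels throughout. The libraries held 10510569 to 25959142 reads, of which the members took between 0.563% and 0.826%. The replicate libraries differed far more in TS/A than in 4T1, with a biological coefficient of variation of 19.5% against 5.47%. The 2 TS/A empty libraries stood apart most, with a chi-square per degree of freedom of 123 over genes, against 18.0 for the TS/A Gpr56-labelled pair and 3.64 and 5.54 for the 4T1 pairs. 4T1 carried the epithelial markers Epcam, Cdh1, Krt8 and Krt7, whereas in TS/A each of these lay below 1 CPM in all 4 libraries, Krt18 and Krt19 were well expressed and Krt14 stood at 0.692 to 1.93 CPM. Of the immune markers, Ptprc was at or near 0 and Cd3e at 0 in all libraries, whereas Cd14 and Cd68 were present in all 8.

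Promoter sequences are shown for the 4 members with the largest estimated 4T1 fold change, whether or not it passed the test, among those with a response element upstream of their start, since the elements are what members of the pathway are known to share. RefSeq promoter windows of the GRCm38.p6 assembly, reaching from 250 bases before to 50 bases after a start, were matched for 32 member genes (36 windows), and no window was found for Slc7a5, Slc7a3, Aldh1l2 and Slc1a5. The core of the C/EBP-ATF element, TGATGCAA on either strand, occurred in 7 of 36 member windows, against 0.895% of all 32851 windows. These 7 windows belonged to Atf3, Chac1, Nupr1, Herpud1, Slc1a4, Pycr1 and Vldlr. With the sixth base free, TGATGNAA, the count was 9 of 36, adding Asns and Trib3, against 3.97% of all windows. The first form is part of the second. Each line below reads 5′ to 3′ along the gene's strand, as in the reference genome and not as read from these cell lines, and capitals mark the element, which appears as its reverse complement in Chac1 and Vldlr.
Chac1, chr2:119350993-119351112, plus strand: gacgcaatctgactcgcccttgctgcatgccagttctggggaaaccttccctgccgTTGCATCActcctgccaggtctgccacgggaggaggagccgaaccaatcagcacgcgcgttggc
Vldlr, chr19:27216809-27216838, plus strand: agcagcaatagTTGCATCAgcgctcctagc
Pycr1, chr11:120643788-120643907, minus strand: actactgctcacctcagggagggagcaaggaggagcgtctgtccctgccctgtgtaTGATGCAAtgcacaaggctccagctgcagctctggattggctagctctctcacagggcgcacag
Asns, chr6:7693214-7693243, minus strand: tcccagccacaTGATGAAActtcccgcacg
In Chac1 the first base of the element lay 193 bases before the RefSeq start, in Vldlr 200, in Pycr1 103 and in Asns 23. In Vldlr and Asns the element lies inside an exon of a longer GENCODE M21 transcript that starts farther upstream, and 30 bases around it are shown in place of 120. The match in Slc1a4 spanned the start and that in Trib3 lay after it, so neither is printed. A match is a description of these letters and no measure of binding.

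An exact match to an element known from the unfolded protein response lay in the windows of 2 ER genes. Their sequences, chosen after their values were seen, are printed for comparison with the amino acid genes. Elements outside the windows or with a changed base were not searched. The ER stress response element was searched as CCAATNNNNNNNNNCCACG on both strands and occurred in Hspa5 among the 36 member windows and in 0.119% of all windows. Its shorter relative ERSE-II, an ATTGG box and a CCACG box with 1 base of any kind between them, was searched on both strands and occurred in Herpud1 among the member windows and in 0.0365% of all. Herpud1 was also one of the 7 genes with the C/EBP-ATF core. Capitals again mark the elements; in Herpud1 the first run is the C/EBP-ATF core as its reverse complement and the second is ERSE-II. Hspa5, whose GENCODE M21 start also lies upstream of the element, is shown over 30 bases.
Hspa5, chr2:34772019-34772048, plus strand: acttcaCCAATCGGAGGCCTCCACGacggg
Herpud1, chr8:94386292-94386411, plus strand: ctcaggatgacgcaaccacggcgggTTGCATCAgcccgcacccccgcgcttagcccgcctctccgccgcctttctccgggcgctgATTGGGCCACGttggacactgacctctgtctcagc
The cyclic AMP response element TGACGTCA, which ATF and CREB factors bind, occurred in 1 member window, that of Ppp1r15a, against 1.79% of all windows. Xbp1, the factor that IRE1 activates by cutting a short intron from its messenger RNA, is shown around that intron because the count tables cannot part the 2 forms. All 3 listed Xbp1 transcripts hold the intron's 26 bases, in capitals here with 30 bases on either side from transcript ENSMUST00000063084 (bases 815 to 840 are the intron).
Xbp1, GENCODE M21 transcript, gene at chr11:5520659-5525893, plus strand: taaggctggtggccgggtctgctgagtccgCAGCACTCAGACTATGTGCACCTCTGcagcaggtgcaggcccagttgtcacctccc
Reads of spliced and unspliced Xbp1 were therefore counted together.

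In 4T1, 16 members were lower with the Gpr56 vector and 2 were higher. Of 34 tested members, the other 16 did not pass an adjusted p of 0.05 in edgeR's quasi-likelihood test on the 4 libraries of the line. Over all 11359 genes tested, 11.3% were called lower and 11.5% higher. With library totals in place of the TMM scaling factors these shares were 9.17% and 14.3%, and 14 members were lower and 3 higher. The median log2 fold change was -0.19 over the tested members and -0.00042 over all genes. Aldh1l2 and Slc7a3 did not pass the filter on low counts in this line. By role, 6 of 8 tested synthesis enzymes fell, 4 of 6 stress effectors, 3 of 9 regulators, 2 of 5 ER genes and 1 of 6 transporters. The 2 increases were those of the regulator Cebpb and the ER gene Sdf2l1. Both Gpr56 libraries lay below both empty libraries for 21 members, where 31.2% of all genes did so, and above them for 5 members, against 30.5% of all genes.

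**Figure D1:**
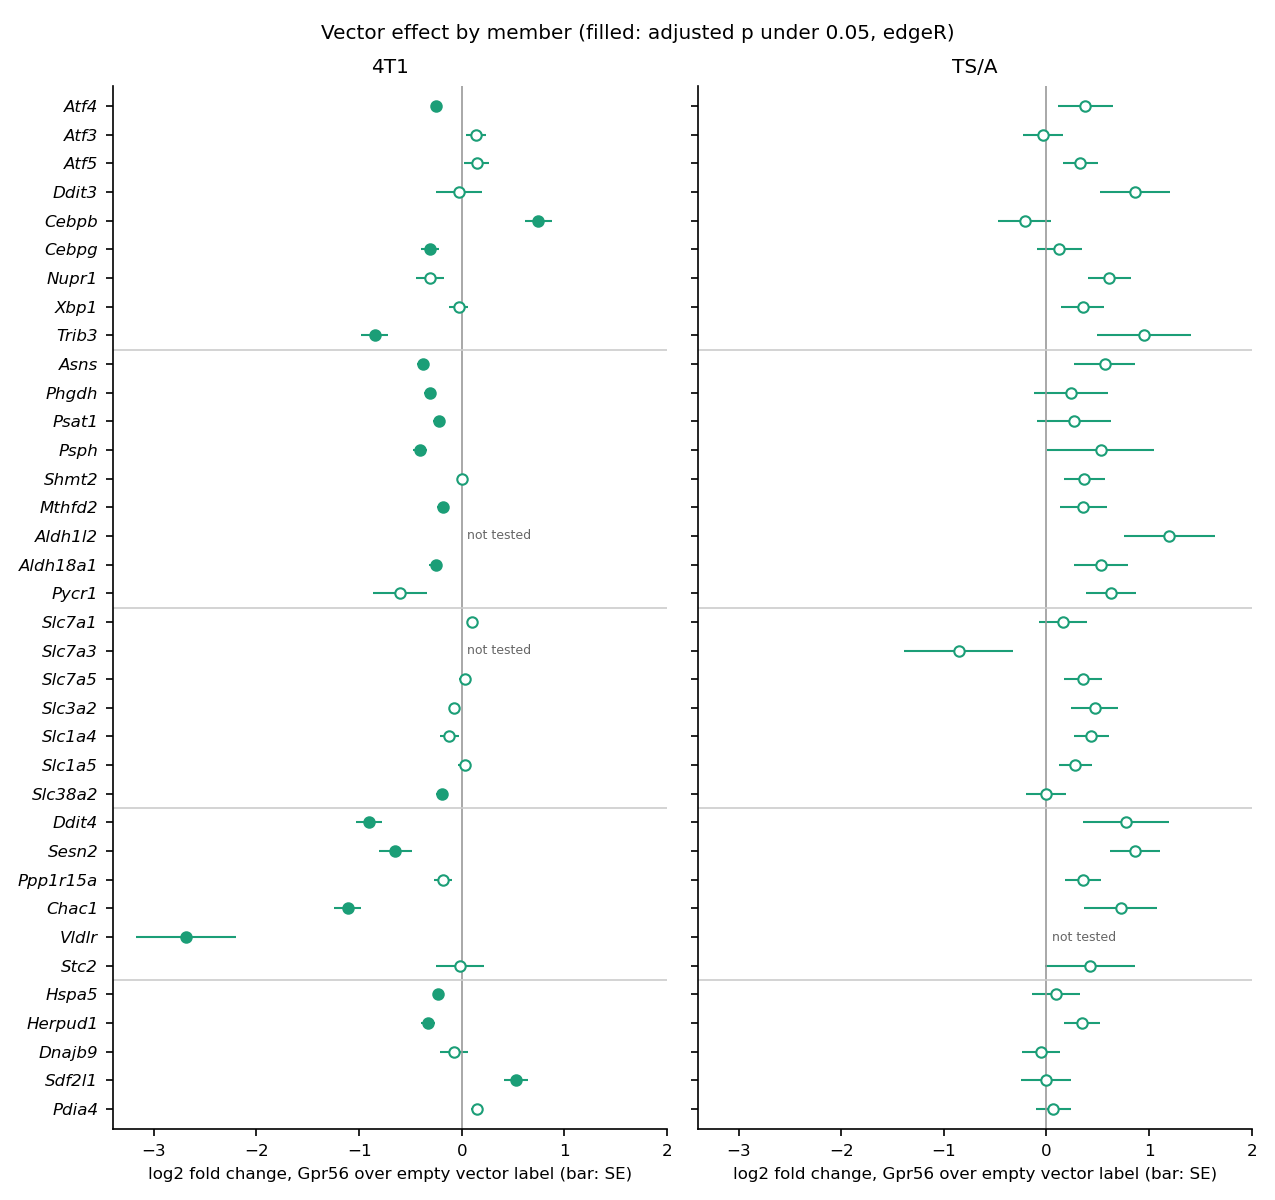
Log2 fold change of each member between the Gpr56 and empty vector labels, in 4T1 (left) and TS/A (right), with members in rows and grey lines between the 5 roles. Points are edgeR estimates, bars are standard errors, and filled points passed an adjusted p of 0.05, which held for 18 members in 4T1 and 0 in TS/A.

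Among the regulators, Atf4 itself fell from 386 and 381 CPM with the empty vector to 321 and 324 CPM with the Gpr56 vector (log2 fold change -0.25, SE 0.052, edgeR adjusted p = 0.00289). Trib3, a pseudokinase that ATF4 induces and that restrains it in turn, fell from 17.4 and 19.9 CPM with the empty vector to 9.97 and 11.0 CPM with the Gpr56 vector (log2 fold change -0.85, SE 0.13, edgeR adjusted p = 0.000363). Cebpg, a bZIP partner of ATF4, fell from 40.1 and 44.7 CPM with the empty vector to 35.8 and 32.4 CPM with the Gpr56 vector (log2 fold change -0.31, SE 0.088, edgeR adjusted p = 0.0208). All 3 had both Gpr56 libraries below both empty libraries. Atf4 (ENSMUSG00000042406, chr15:80255184-80257541), Trib3 (ENSMUSG00000032715, chr2:152337422-152344032) and Cebpg (ENSMUSG00000056216, chr7:35046422-35056573) lie on different chromosomes of GRCm38, in the annotation GENCODE M21. Cebpb (ENSMUSG00000056501, chr2:167688915-167690418), another bZIP partner, went the other way. It rose from 14.7 and 20.1 CPM with the empty vector to 29.95 and 28.5 CPM with the Gpr56 vector (log2 fold change 0.74, SE 0.13, edgeR adjusted p = 0.000865). Its 312 exon bases shared with Tmem189 on the opposite strand could not be told apart by strand with this library kit, and Tmem189 itself read 44.0 and 42.9 CPM with the empty and 52.7 CPM in both libraries with the Gpr56 vector. The other 5 regulators did not pass. Nupr1, a small stress-induced chromatin protein, read 14.3 and 14.7 CPM with the empty and 11.0 and 12.7 CPM with the Gpr56 vector, without overlap (log2 fold change -0.31, SE 0.14, edgeR adjusted p = 0.112). Ddit3, which encodes the pro-apoptotic factor CHOP, read 4.16 and 4.70 CPM with the empty and 4.54 and 4.12 CPM with the Gpr56 vector, so its groups overlapped. Atf3, Atf5 and Xbp1 had log2 fold changes of 0.14, 0.14 and -0.031.

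The synthesis enzymes formed the role with the most decreases. Asns, which makes asparagine, fell from 164 and 154 CPM with the empty vector to 119.8 and 125 CPM with the Gpr56 vector (log2 fold change -0.38, SE 0.06, edgeR adjusted p = 0.000357). The messenger RNAs of all 3 enzymes of the serine pathway fell. Phgdh, its first enzyme, fell from 552 and 571 CPM with the empty vector to 462 and 444 CPM with the Gpr56 vector (log2 fold change -0.31, SE 0.053, edgeR adjusted p = 0.000647). Psat1, the second, read 604 and 610.0 CPM with the empty and 523 and 517 CPM with the Gpr56 vector (log2 fold change -0.22, SE 0.051, edgeR adjusted p = 0.00509). Psph, the last, fell from 65.3 and 67.6 CPM with the empty vector to 52.0 and 47.6 CPM with the Gpr56 vector (log2 fold change -0.41, SE 0.07, edgeR adjusted p = 0.000647). In none of these 4 genes did the groups overlap. Psph shares 452 exon bases with Cct6a on the opposite strand, a gene that had no count of its own. Aldh18a1, the first enzyme of proline synthesis from glutamate, fell from 114 and 109 CPM with the empty vector to 94.3 and 92.2 CPM with the Gpr56 vector (log2 fold change -0.25, SE 0.06, edgeR adjusted p = 0.00617). Mthfd2, a mitochondrial enzyme of one-carbon metabolism, fell by 0.18 on the log2 scale, from 155 and 161 CPM to 140.2 and 139 CPM. Pycr1, the mitochondrial enzyme of the last step to proline, stood at 5.06 and 3.90 CPM with the empty and 3.28 and 2.44 CPM with the Gpr56 vector. The difference of this weakly expressed gene was larger than in the called enzymes and did not pass (log2 fold change -0.60, SE 0.26, edgeR adjusted p = 0.112). Shmt2, which moves a carbon unit from serine to folate in mitochondria, was level, at 368 and 353 CPM against 361 and 361 CPM. Of the 6 enzymes that fell, Asns held a C/EBP-ATF element in its window, in the form with 1 base free, and the 5 others held none.

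Of the transporters only 1 passed the test. Slc38a2, a sodium-coupled carrier of neutral amino acids, fell by 0.19 on the log2 scale, from 264 and 261 CPM to 222 and 239 CPM. The 5 others had log2 fold changes between -0.12 (Slc1a4, a carrier of alanine, serine and cysteine) and 0.10 (Slc7a1, a carrier of cationic amino acids). Slc7a5, the light chain of the large neutral amino acid carrier, read 299 and 308 CPM with the empty and 313 and 307 CPM with the Gpr56 vector. Slc3a2, its heavy chain, read 228 and 233 CPM and 214 and 226 CPM. Slc1a5, the glutamine carrier, overlapped between the groups. Slc7a3, another cationic carrier, was at or below 0.337 CPM in every 4T1 library.

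The stress effectors held the largest fold changes. Vldlr, a lipoprotein receptor, fell from 1.86 and 2.63 CPM with the empty vector to 0.328 and 0.375 CPM with the Gpr56 vector (log2 fold change -2.69, SE 0.49, edgeR adjusted p = 0.00103). These values rest on 33, 56, 7 and 4 reads in empty libraries 1 and 2 and Gpr56 libraries 1 and 2, so the fold is imprecise. Chac1, which degrades glutathione, fell from 21.1 and 21.4 CPM with the empty vector to 10.6 and 8.81 CPM with the Gpr56 vector (log2 fold change -1.11, SE 0.13, edgeR adjusted p = 2.95e-05). Its empty libraries were nearly equal, and both Gpr56 libraries lay well below them. Ddit4, an inhibitor of mTOR signalling, fell from 21.2 and 23.2 CPM with the empty vector to 11.1 and 12.8 CPM with the Gpr56 vector (log2 fold change -0.91, SE 0.13, edgeR adjusted p = 0.000128). Sesn2, a leucine sensor that also restrains mTOR, fell from 11.8 and 10.1 CPM with the empty vector to 7.16 and 6.75 CPM with the Gpr56 vector (log2 fold change -0.65, SE 0.16, edgeR adjusted p = 0.00941). Ppp1r15a, the phosphatase subunit that reverses eIF2α phosphorylation, read 34.8 and 36.8 CPM and 31.9 and 31.2 CPM, without overlap, and did not pass the test (log2 fold change -0.18, SE 0.087, edgeR adjusted p = 0.15). Stc2, a secreted glycoprotein, was weakly expressed at 4.11 and 4.42 CPM and 4.63 and 3.66 CPM, and its groups overlapped.

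The ER genes moved in both directions. Hspa5, the chaperone BiP and the most abundant member, fell by 0.23 on the log2 scale, from 2504 and 2495 CPM to 2225 and 2047 CPM. Herpud1, an ER membrane protein of ER-associated degradation, fell from 62.7 and 63.8 CPM with the empty vector to 51.8 and 48.3 CPM with the Gpr56 vector (log2 fold change -0.33, SE 0.068, edgeR adjusted p = 0.00258). These were the 2 members in whose windows the searched ER stress elements were found. A link between element and change was not tested. Sdf2l1, an ER lumen partner of BiP, rose from 14.5 and 16.4 CPM with the empty vector to 22.4 and 22.4 CPM with the Gpr56 vector (log2 fold change 0.53, SE 0.12, edgeR adjusted p = 0.0043). Pdia4, a protein disulfide isomerase, read 109 and 105 CPM and 115 and 122 CPM, with the Gpr56 libraries above and an adjusted p of 0.0878 by edgeR. Dnajb9, a BiP co-chaperone, overlapped between the groups.

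**Figure D2:**
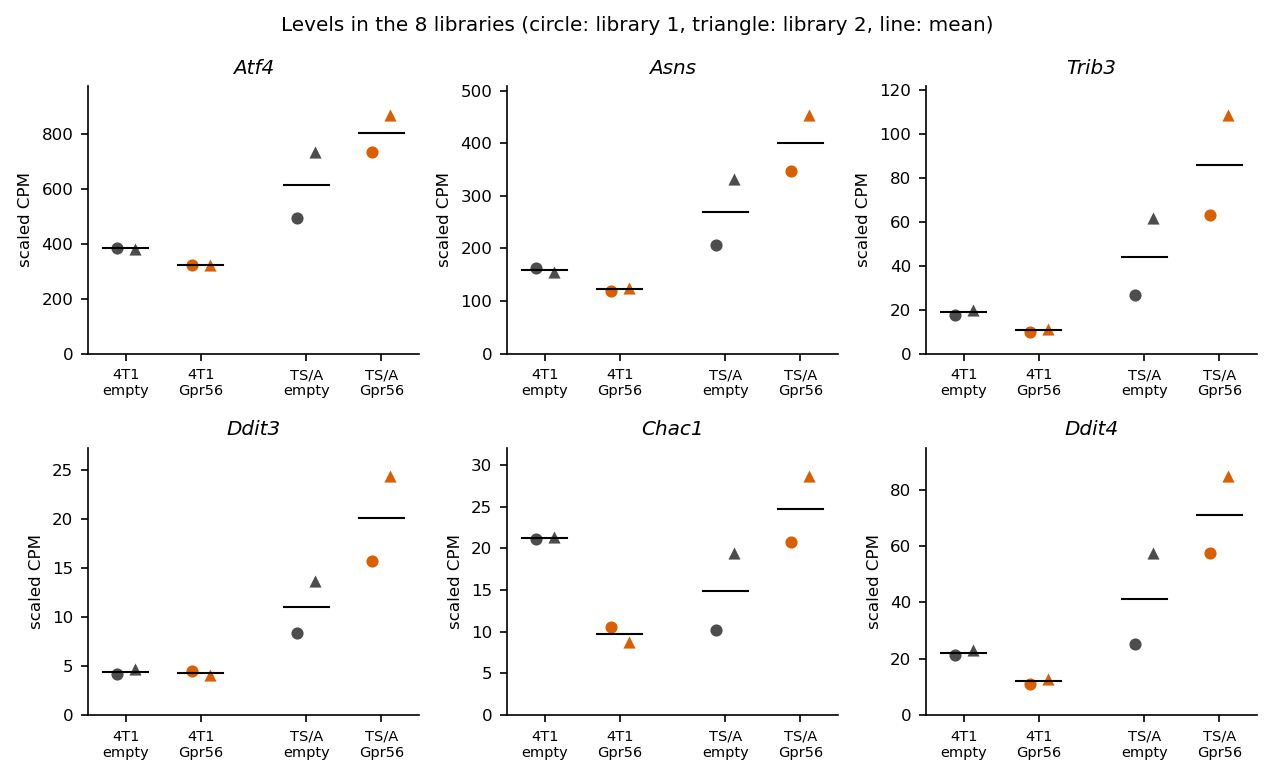
Level of 6 members in each library, in CPM scaled by the TMM factors (vertical axes start at 0). Circles are library 1, triangles library 2 and horizontal lines group means. Atf4, Asns, Trib3, Chac1 and Ddit4 part the vector labels in 4T1 and spread widely within the TS/A groups. In TS/A both Gpr56-labelled libraries of these genes lie above both empty ones, barely so for Atf4 and Ddit4.

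The 4T1 decreases depended on how the spread between libraries was estimated. When all 8 libraries shared 1 estimate of the spread, 0 members and 0.226% of all genes were called in 4T1, and Atf4, Chac1 and Asns had adjusted p-values of 0.7, 0.2 and 0.605 at log2 fold changes of -0.25, -1.12 and -0.38. Leaving out each 4T1 library in turn kept 9 members lower in all 4 fits, namely Atf4, Trib3, Asns, Phgdh, Psph, Ddit4, Chac1, Vldlr and Herpud1, against 4.13% of all genes. Without 4T1 empty library 1, 10 members were lower (6.33% of all genes) and 1 higher (7.39%). Other measures also parted the vector groups in 4T1, given here as CPM not scaled by TMM. The summed epithelial markers, which this line itself expresses, were at 2140 to 2172 CPM with the empty and 2983 to 3067 CPM with the Gpr56 vector, and 7 of 8 tested rose. The summed immune markers stood at 14.6 to 15.8 CPM with the empty and 27.0 to 30.1 CPM with the Gpr56 vector, with 11 to 13 of the 20 at 0 reads in each library, and Cd14 and Cd68 rose (log2 fold changes 0.51 and 1.19). The summed fibroblast markers stood at 28.1 to 30.2 CPM with the empty and 13.9 CPM with the Gpr56 vector, with 6 to 8 of the 13 at 0 reads. The summed endothelial markers stood at 93.3 to 98.7 CPM with the empty and 104 to 116 CPM with the Gpr56 vector, mostly Eng and Flt1, with 6 of 12 at 0 reads. Eng rose and Flt1 fell (log2 fold changes 0.32 and -0.38). Mitochondrially encoded genes took 0.755% and 0.965% of reads with the empty and 0.652% and 0.568% with the Gpr56 vector. Their part in the differences of the members was not tested, and fewer cells of a type cannot be told apart from less RNA per cell in bulk libraries.

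In TS/A, most members lay higher under the Gpr56 label, but 0 passed the test. Of 35 tested members, 0 were called in either direction by edgeR on the 4 TS/A libraries, as were 0 of all 11273 genes (0%). In the fit of all 8 libraries 0 members and 0.00836% of all genes were called. With the replicate number as a block, 3 members (Trib3, Aldh1l2 and Ddit4) were called higher, as were 0.177% of all genes. At an unadjusted p under 0.05 there were 6 members (Ddit3, Nupr1, Aldh1l2, Pycr1, Slc1a4 and Sesn2) and 115 genes in all, or 1.02%. The median log2 fold change was 0.36 over the members, with 29 of 35 above 0, and -0.016 over all genes. Both Gpr56-labelled libraries lay above both empty libraries for 20 members, against 11.3% of all genes, and below them for 1 member (Slc7a3), against 10.4%. The libraries kept much the same order from member to member. Empty library 1 was the lowest of the 4 for 28 of 35 members (34.3% of all genes) and Gpr56-labelled library 2 the highest for 23 (18.5% of all genes), and both held for 20 (10% of all genes). Empty library 2 lay above empty library 1 for 29 members (46.3% of all genes). For 19 of 35 members (54.3%) the gap between the 2 empty libraries exceeded that between the group means on the log2 scale, against 79.6% of all genes.

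**Figure D3:**
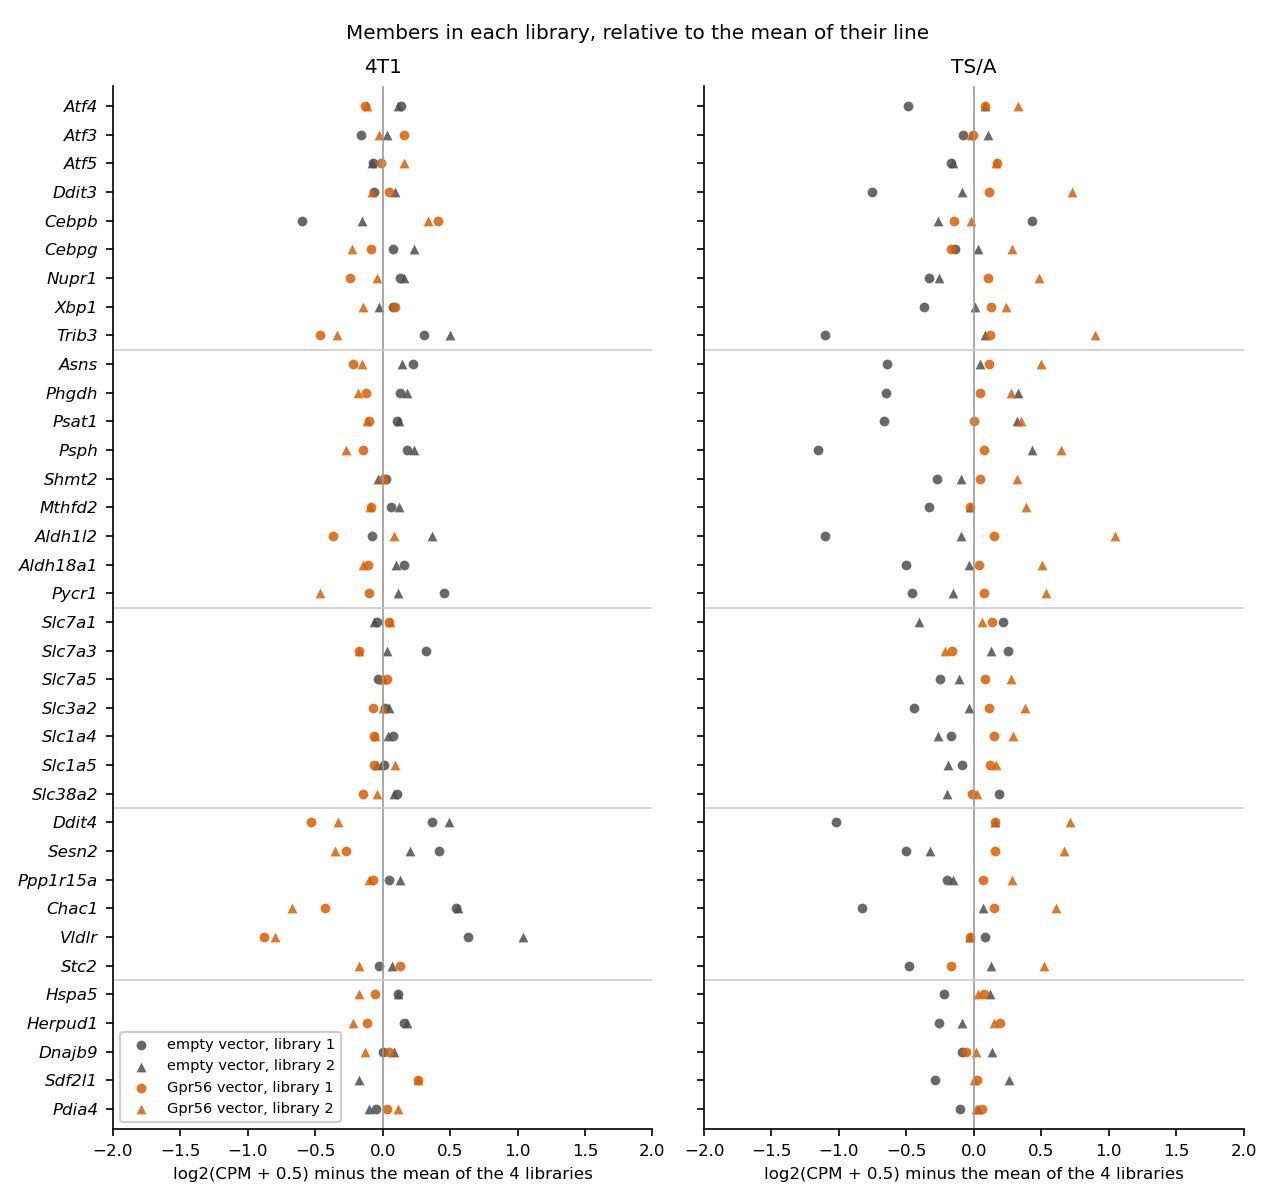
Level of each member in each library as log2(CPM + 0.5) minus the mean of the 4 libraries of its line, for 4T1 (left) and TS/A (right). Circles are library 1 and triangles library 2, grey for the empty and orange for the Gpr56 vector label. In TS/A the grey circle, empty library 1, lies leftmost for 28 of 35 tested members and the orange triangle, Gpr56-labelled library 2, rightmost for 23.

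Among the regulators in TS/A, Atf4 read 495 and 733 CPM in empty libraries 1 and 2 and 733 and 870.3 CPM in Gpr56-labelled libraries 1 and 2 (log2 fold change 0.38, SE 0.27, edgeR adjusted p = 1). Empty library 2 was thus level with Gpr56-labelled library 1, while empty library 1 stood well below both. Trib3 read 26.7 and 61.5 CPM in the empty and 63.1 and 109 CPM in the Gpr56-labelled libraries. For Ddit3 the values were 8.36 and 13.6 CPM against 15.7 and 24.4 CPM. Both genes showed the same order, with empty library 1 lowest and Gpr56-labelled library 2 highest. Ddit3 shares 68 exon bases with Mars on the opposite strand, a tRNA synthetase gene that read 185, 309, 299 and 331 CPM in the same 4 libraries. Nupr1 read 17.9 and 18.9 CPM in the empty and 24.4 and 32.0 CPM in the Gpr56-labelled libraries. For Xbp1 the values were 43.6 and 56.6 CPM against 61.7 and 66.7 CPM. In these genes, too, the labelled groups did not overlap. Atf5 read 34.9 and 35.3 CPM in the empty and 44.3 and 44.1 CPM in the Gpr56-labelled libraries. The 2 libraries of each group lay almost together and the groups apart. Atf5 shares 82 exon bases with Nup62 on the opposite strand, a gene at 85.6, 84.4, 87.7 and 83.7 CPM in the 4 libraries. Cebpg read 49.5 and 55.8 CPM in the empty and 48.7 and 66.6 CPM in the Gpr56-labelled libraries. For Atf3 the values were 15.7 and 17.9 CPM against 16.5 and 16.4 CPM. The groups of both overlapped. Cebpb read 35.8 and 21.9 CPM in the empty and 23.8 and 25.9 CPM in the Gpr56-labelled libraries, so that this gene, which rose in 4T1, was highest in empty library 1.

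The synthesis enzymes were lowest in empty library 1 in 9 of 9 cases. Asns read 206 and 333 CPM in the empty and 348 and 455 CPM in the Gpr56-labelled libraries. For Aldh18a1 the values were 159 and 220.2 CPM against 231 and 321 CPM. The groups did not overlap in either. Phgdh read 629.8 and 1243 CPM in the empty and 1023 and 1199.9 CPM in the Gpr56-labelled libraries (log2 fold change 0.24, SE 0.36, edgeR adjusted p = 1). Psat1 read 388 and 767 CPM in the empty and 615 and 786 CPM in the Gpr56-labelled libraries (log2 fold change 0.27, SE 0.36, edgeR adjusted p = 1). Psph read 71.2 and 215 CPM in the empty and 168 and 249 CPM in the Gpr56-labelled libraries. In the 3 serine enzymes empty library 2 lay above Gpr56-labelled library 1, and the gap between the empty libraries was the wider one. Shmt2 read 312 and 354 CPM in the empty and 391 and 473 CPM in the Gpr56-labelled libraries. For Mthfd2 the values were 155 and 192 CPM against 192 and 256 CPM. The groups of Shmt2 were apart, and those of Mthfd2 overlapped, empty library 2 and Gpr56-labelled library 1 being level. Pycr1 read 15.4 and 19.1 CPM in the empty and 22.5 and 31.1 CPM in the Gpr56-labelled libraries. Aldh1l2, a mitochondrial formyltetrahydrofolate dehydrogenase that 4T1 barely expressed, read 9.71 and 20.03 CPM in the empty and 23.8 and 44.6 CPM in the Gpr56-labelled libraries. Aldh1l2 shares 1056 exon bases with D10Wsu102e on the opposite strand, a gene at 128, 109, 117 and 108 CPM in the 4 libraries.

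Of the 7 transporters, 2 were lowest in empty library 1. Slc7a5 read 222 and 245 CPM in the empty and 280.1 and 320.4 CPM in the Gpr56-labelled libraries. For its partner chain Slc3a2 the values were 205 and 272 CPM against 301 and 362 CPM. Slc1a4 read 56.0 and 52.5 CPM in the empty and 70.00 and 77.4 CPM in the Gpr56-labelled libraries. For Slc1a5 the values were 116 and 108 CPM against 134 and 139 CPM. In these 4 genes both Gpr56-labelled libraries lay above both empty ones. Slc7a1 read 202 and 131 CPM in the empty and 191 and 181 CPM in the Gpr56-labelled libraries. For Slc38a2 the values were 279 and 213 CPM against 242 and 249 CPM. Both were highest in empty library 1 and lowest in empty library 2. Slc7a3 read 0.574 and 0.485 CPM in the empty and 0.305 and 0.277 CPM in the Gpr56-labelled libraries, all under 1 CPM.

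Of the 5 tested stress effectors, 5 were lowest in empty library 1 and highest in Gpr56-labelled library 2. Ddit4 read 25.3 and 57.5 CPM in the empty and 57.6 and 84.9 CPM in the Gpr56-labelled libraries. For Chac1 the values were 10.2 and 19.5 CPM against 20.7 and 28.7 CPM. For Ddit4 empty library 2 and Gpr56-labelled library 1 were nearly equal. Sesn2 read 12.8 and 14.6 CPM in the empty and 20.6 and 29.5 CPM in the Gpr56-labelled libraries. For Ppp1r15a the values were 38.3 and 39.6 CPM against 46.3 and 53.7 CPM. These 2 had both empty libraries close together and both Gpr56-labelled libraries above them. Stc2 read 1.80 and 3.02 CPM in the empty and 2.36 and 4.11 CPM in the Gpr56-labelled libraries. Vldlr had 1 read in empty library 1 and 0 reads in the 3 other TS/A libraries, where 3 reads would correspond to between 0.116 and 0.153 CPM, and it was not tested.

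The ER genes had a median log2 fold change of 0.067 in TS/A, the smallest of the 5 roles. Hspa5 read 1194 and 1511 CPM in the empty and 1472 and 1422 CPM in the Gpr56-labelled libraries (log2 fold change 0.092, SE 0.23, edgeR adjusted p = 1). Pdia4 read 169 and 186 CPM in the empty and 189 and 184 CPM in the Gpr56-labelled libraries. For Dnajb9 the values were 35.7 and 41.8 CPM against 36.4 and 38.3 CPM. Sdf2l1 read 28.7 and 42.3 CPM in the empty and 35.8 and 35.2 CPM in the Gpr56-labelled libraries. In these 4 genes empty library 1 was the lowest and empty library 2 was among the higher libraries, so the groups overlapped. Herpud1 read 61.6 and 69.2 CPM in the empty and 84.5 and 82.0 CPM in the Gpr56-labelled libraries. It was the ER gene whose groups did not overlap.

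The TS/A result turned on its empty libraries. Without empty library 2, 16 members were called higher (5.97% of all genes were), Atf4, Phgdh and Psat1 among them, with a median of 0.55 over the members. Without empty library 1, 0 members were called (0.0263% of all genes were), the median was 0.27, and Hspa5, Phgdh and Psat1 turned to -0.067, -0.17 and -0.14. Each of these fits holds 1 empty library, which is assumed to vary like the other group. Other measures also ordered the TS/A libraries, in the order empty 1, empty 2, Gpr56-labelled 1 and 2: the summed fibroblast markers were at 422, 165, 274 and 185 CPM without TMM scaling, 328, 131, 202 and 142 CPM of it Col1a1, and mitochondrially encoded genes took 0.859%, 0.655%, 0.517% and 0.517% of reads. Of the 13 fibroblast markers, 6 or 7 were at 0 reads in each library. Adgrg1, too, was highest in empty library 1, and the part of these in the members' values was not tested.

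Whether the effect of the vector label on a member differed between the lines was asked in the fit of all 8 libraries. In TS/A the Gpr56 label did not come with higher Adgrg1. A different response of the lines to Gpr56 therefore cannot be read from this difference. Of 35 tested members, 0 passed the test of the difference by edgeR, against 0.0669% of all 11967 genes (0.0167% higher and 0.0501% lower), and 15 members had an unadjusted p under 0.05, against 6.4% of all genes. The difference, the effect in TS/A minus that in 4T1, was 1.52, SE 0.29, edgeR adjusted p = 0.283 for Sesn2, the member with the smallest p. For Chac1 it was 1.86, SE 0.42, edgeR adjusted p = 0.354. For Herpud1 it was 0.69, SE 0.16, edgeR adjusted p = 0.379, and for Nupr1 0.92, SE 0.24, edgeR adjusted p = 0.454. For all 4, both Gpr56-labelled libraries lay below both empty libraries in 4T1 and above them in TS/A. Both Gpr56-labelled libraries lay below both empty libraries in 4T1 and above them in TS/A for 13 of the 33 members tested in both lines. Of all genes, 2.79% did so. The reverse held for 0 members, against 2.76% of all genes. The 13 members were Atf4, Nupr1 and Trib3 among the regulators, Asns, Aldh18a1 and Pycr1 among the enzymes, Slc3a2 and Slc1a4 among the transporters, Ddit4, Sesn2, Ppp1r15a and Chac1 among the effectors, and Herpud1. Some were barely apart in TS/A. Empty library 2 and Gpr56-labelled library 1 read 733.2 and 733.4 CPM for Atf4 and 57.51 and 57.58 CPM for Ddit4. For Trib3 they read 61.5 and 63.1 CPM. Without TS/A empty library 1, the difference was called higher for 5 members (1.34% of all genes) and lower for 1 (1.19%). Without TS/A empty library 2 it was called higher for 22 members (9.44% of all genes) and lower for 1 (10.1%). With DESeq2 it was called higher for 2 members, Sesn2 and Chac1 (0.226% of all genes). With the replicate number as a block it was called higher for 4 members, Trib3, Ddit4, Sesn2 and Chac1 (0.142% of all genes).

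Taken in both directions together, called differences between the lines were about as common among the members as among all genes. Increases in TS/A held a larger share among the members and decreases a smaller one. With the empty vector, 13 of 35 tested members were higher and 5 lower in TS/A than in 4T1 by edgeR, 18 together, where 23.9% of all genes were higher and 23.5% lower, 47.4% together. At an unadjusted p under 0.05 there were 23 members, against 55.3% of all genes. The median log2 fold change was 0.34 over the members and 0.015 over all genes. Aldh1l2 had the largest of these increases. It stood at 0.422 ± 0.200 CPM in 4T1 and 14.9 ± 7.29 CPM in TS/A (SD, n = 2 in each line; log2 fold change 5.08, SE 0.58, edgeR adjusted p = 0.000265). Pycr1 stood at 4.48 ± 0.822 against 17.2 ± 2.65 CPM (log2 fold change 1.95, SE 0.25, edgeR adjusted p = 0.000438). Higher in TS/A were also the regulators Ddit3, Atf5 and Trib3. Ddit3 had 4.43 ± 0.378 against 11.0 ± 3.72 CPM (log2 fold change 1.30, SE 0.30, edgeR adjusted p = 0.00815). Atf5 had 14.6 ± 0.0503 against 35.1 ± 0.273 CPM (log2 fold change 1.26, SE 0.12, edgeR adjusted p = 0.000115). Trib3 had 18.7 ± 1.75 against 44.1 ± 24.6 CPM (log2 fold change 1.23, SE 0.38, edgeR adjusted p = 0.0289). Both BiP partners were higher as well. Dnajb9 stood at 12.2 ± 0.477 against 38.8 ± 4.27 CPM (log2 fold change 1.67, SE 0.14, edgeR adjusted p = 5.25e-05). Sdf2l1 stood at 15.4 ± 1.40 against 35.5 ± 9.64 CPM (log2 fold change 1.20, SE 0.19, edgeR adjusted p = 0.0014). Slc1a4 was higher at 29.0 ± 0.539 against 54.3 ± 2.50 CPM (log2 fold change 0.90, SE 0.12, edgeR adjusted p = 0.000489). The remaining members called higher were Atf4, Cebpb, Asns, Aldh18a1 and Pdia4. Their log2 fold changes were 0.68, 0.73, 0.76, 0.77 and 0.73.

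Lower in TS/A than in 4T1 were Vldlr, Atf3, Hspa5, Slc1a5 and Slc7a5. Vldlr had 89 reads in the 2 4T1 empty libraries and 1 read in the 2 TS/A empty libraries, 96.2 times as many relative to library size, with an exact 95% interval of 16.8 to 3841 that covers counting error only. Atf3, a stress-induced bZIP factor, was lower at 32.7 ± 3.16 against 16.8 ± 1.58 CPM (log2 fold change -0.96, SE 0.14, edgeR adjusted p = 0.00106). Hspa5 fell by 0.89 on the log2 scale between 4T1 and TS/A, while Dnajb9, Sdf2l1 and Pdia4 were higher in TS/A. Over all 4 libraries of each line, every TS/A library lay above every 4T1 library for 20 of 35 members, against 28.9% of all genes, and below for 4, against 30% of all genes. Averaged over both vector labels, 23 members were higher (32.8% of all genes) and 5 lower (32.4%). With the empty vector, 7 members were higher when 4T1 empty library 1 was left out (12.7% of all genes) and 8 when 4T1 empty library 2 was (12.8%). Without TS/A empty library 2, 8 members were lower (28.6% of all genes), and Trib3 was then no longer called higher (log2 fold change 0.51, edgeR adjusted p = 0.101).

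**Figure D4:**
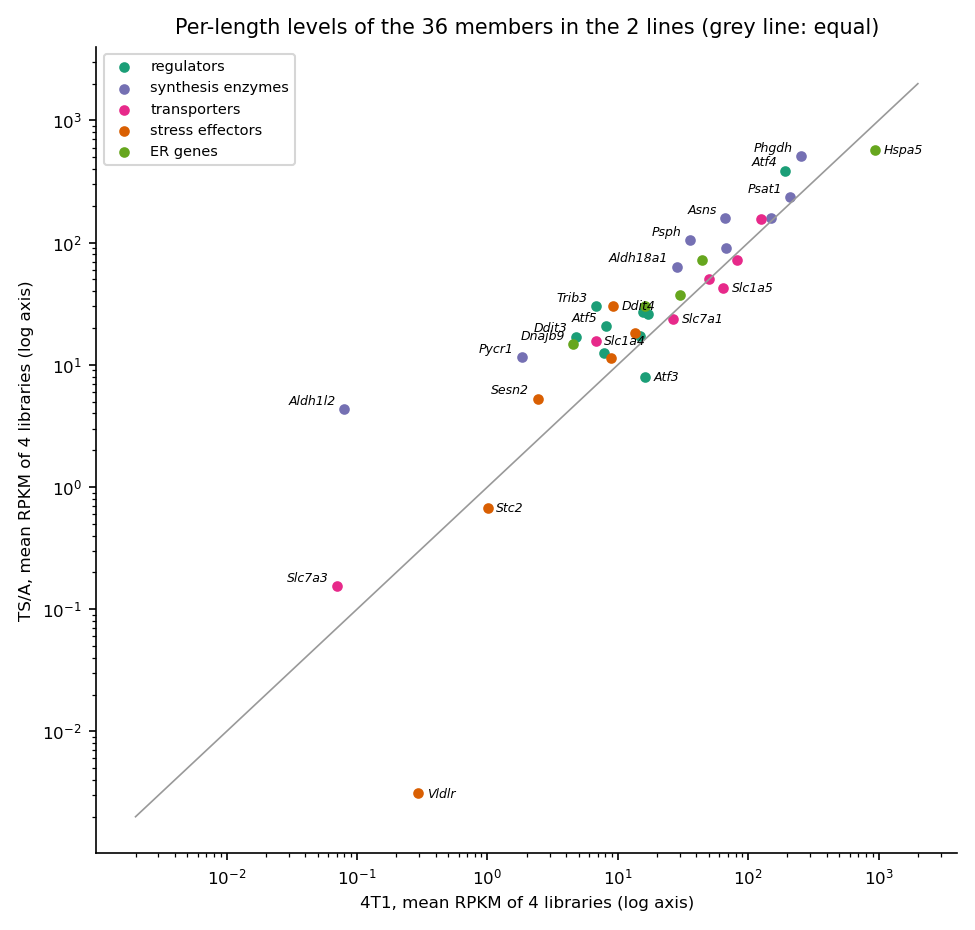
Per-length level of the 36 members as mean RPKM (reads relative to transcript length and library size) of the 4 libraries of 4T1 (horizontal, log axis) and TS/A (vertical, log axis), coloured by role, with some of the members named. The grey line marks equal levels, and Aldh1l2 and Pycr1 lie above it while Vldlr, Atf3 and Hspa5 lie below it.

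Levels between genes were compared per transcript length, on the deposited RPKM summed over the transcripts of a gene. Hspa5 ranked first among the members in both lines, at a mean of 946 RPKM in 4T1 and 571 RPKM in TS/A. Phgdh ranked second, at 252 and 511 RPKM. Psat1, at 209.6 and 234 RPKM, and Atf4, at 193 and 389 RPKM, took the next 2 ranks in both lines. The transcription factor Atf4 thus stood at percentile 97.1 of the genes with reads in 4T1 and at percentile 98.5 in TS/A. The next regulator was Xbp1 in 4T1, at 17.1 RPKM, and Trib3 in TS/A, at 30.3 RPKM. The lowest levels were those of Slc7a3, Aldh1l2, Vldlr and Stc2 in 4T1, and of the same 4 genes in TS/A with Vldlr last. Trib3 ranked 28 of 36 in 4T1 and 18 in TS/A, and Atf3 ranked 18 in 4T1 and 31 in TS/A.

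Other genes of the same pathways were described from lists of 100 genes, for the vector comparison in 4T1 and TS/A. Of the 20 cytosolic aminoacyl-tRNA synthetases, which charge tRNA with amino acids and many of which ATF4 is known to induce, 4 fell and 1 rose in 4T1 (11.3% and 11.5% of all genes), with a median of -0.066. Tars fell from 321 ± 1.76 to 231 ± 4.83 CPM (SD, n = 2 in each group; log2 fold change -0.47, SE 0.054, edgeR adjusted p = 1.99e-05). Sars fell from 254 ± 0.408 to 212 ± 10.9 CPM (log2 fold change -0.27, SE 0.057, edgeR adjusted p = 0.00324), whereas Qars rose by 0.17 on the log2 scale. In TS/A 0 of 20 passed, the median was 0.24, and both Gpr56-labelled libraries lay above both empty ones for 12 of the 20 (11.3% of all genes) and below for 0. Empty library 1 was the lowest for 15 of the 20 (34.3% of all genes). The list of eIF2 kinases, stress sensors and related genes had 3 lower and 0 higher of 12 in 4T1. Over all genes these shares were 11.3% and 11.5%. Lower were the kinase gene Eif2ak2, Eif2s1, which encodes eIF2α itself, and Mbtps1, at log2 fold changes of -0.26, -0.21 and -0.21. The kinase genes Eif2ak1, Eif2ak3 and Eif2ak4 and the sensor genes Ern1 (IRE1) and Atf6 were not called. In TS/A the list had a median of -0.052.

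The counts of the 4 remaining lists in 4T1 stand beside 11.3% of all genes lower and 11.5% higher. Of the 10 tested transporters outside the member list, 1 rose and 0 fell. This was Slc7a11, the cystine carrier, which went from 16.9 ± 1.43 to 24.8 ± 3.30 CPM (log2 fold change 0.53, SE 0.12, edgeR adjusted p = 0.00596). Of 15 other one-carbon and amino acid enzymes, 3 fell and 1 rose. Among them Gpt2 fell from 17.6 ± 0.576 to 13.3 ± 1.51 CPM and Tyms from 133 ± 0.923 to 103 ± 4.45 CPM, while Prodh, which degrades proline, rose from 41.4 ± 3.64 to 54.9 ± 3.83 CPM. Of 18 other ER chaperones and folding enzymes, 2 fell (Canx and Pdia6, by 0.18 and 0.16 on the log2 scale) and 1 rose (Txndc11). Of 14 genes of ER-associated degradation, 1 rose (Edem2, log2 fold change 0.35) and 0 fell. In TS/A none of these 4 lists had a called gene. Their medians lay between -0.062 for the other ER chaperones and 0.076 for both the other transporters and the other enzymes. The medians were 0.53 for the member enzymes and 0.73 for the member effectors. Of 17 tested other enzymes, 13 had a log2 fold change above 0 (5258 of all 11273 genes). Empty library 1 was the lowest for 10 of the 17 (34.3% of all genes). Among them, Cth read 22.6 and 53.1 CPM in the empty and 53.9 and 105 CPM in the Gpr56-labelled libraries. For Gpt2 the values were 29.8 and 57.2 CPM against 61.2 and 93.7 CPM.

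**Figure D5:**
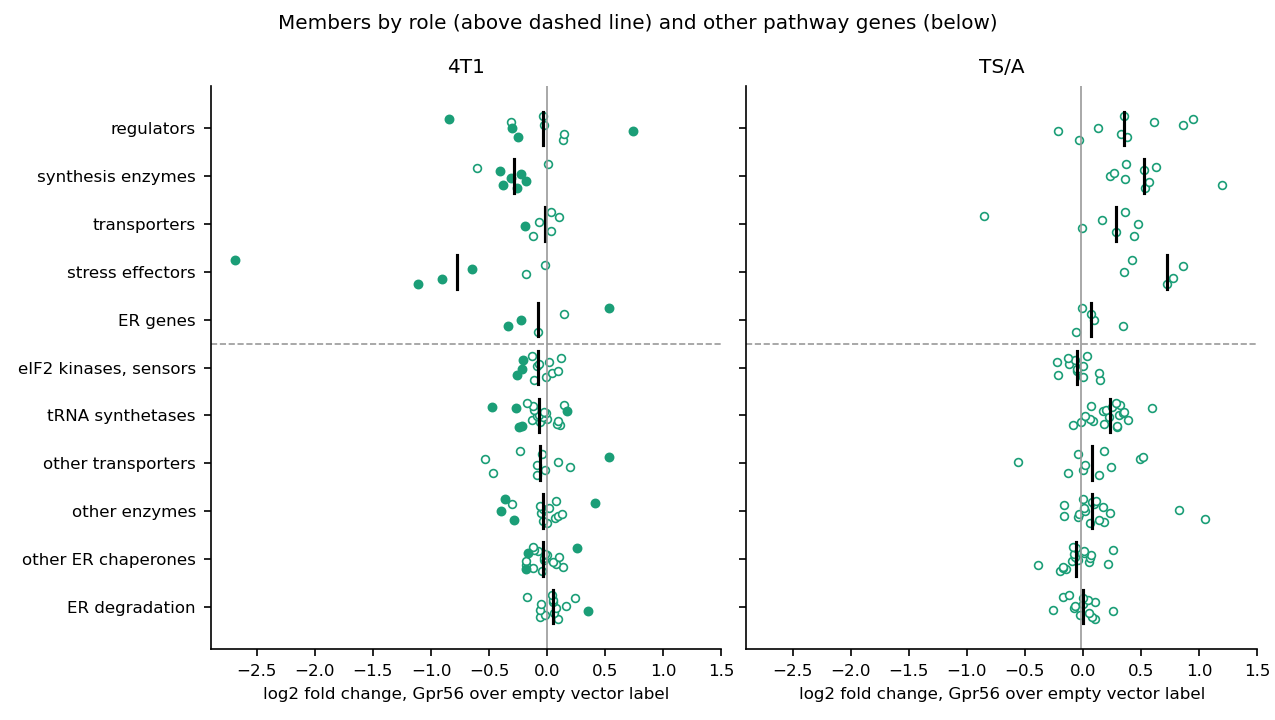
Log2 fold change between the Gpr56 and empty vector labels for the members by role (above the dashed line) and for the other pathway lists (below), in 4T1 (left) and TS/A (right). Each point is a gene, filled where the adjusted p was under 0.05, and black bars are list medians, with stress effectors at -0.78 in 4T1 and 0.73 in TS/A.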

How the data were processed

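Total RNA from 4T1 and TS/A, 2 libraries per line and vector label, was extracted with an RNeasy Mini Kit and made into TruSeq v2 libraries, per the labels' protocols. That kit does not mark strand, so reads of overlapping genes on opposite strands cannot be told apart. Per the file headers, each deposited table gives the authors' read count (total gene reads, whole numbers) and RPKM for 65042 transcripts. Aligner, build and annotation: not given in the sources used here.

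Read counts as deposited were summed over the transcripts of each gene name, with all trailing numbers removed from the name, since 100 transcript names, those of Ddit3 among them, carry a doubled number. The deposited RPKM values were summed likewise and used to compare levels between genes, with no test. Gene positions come from GENCODE M21 (GRCm38), which lacks 19 of the transcripts, and promoter windows from RefSeq (GRCm38.p6). Depth was 10510569 to 25959142 reads, so 3 reads corresponded to 0.116 to 0.285 CPM. No replicate pair agreed within sampling noise in a chi-square test, so none was merged.

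Tests used edgeR 4.0.16 in R 4.3.3 (filterByExpr, TMM, glmQLFit and glmQLFTest, Benjamini-Hochberg over all genes tested, threshold 0.05). Each vector effect was fitted on the 4 libraries of its line. The difference of the vector effects and the comparison of the lines were fitted on all 8. Standard errors are the log2 fold change over the square root of F. The scripts were tested on simulated data. Alternatives were DESeq2 1.42.0 (size factors and Wald test), limma-voom (limma 3.58.1), library totals, other filters, the replicate number as a block, a fit of all 8 libraries and leaving out each library.

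The members, role groups and pathway lists were chosen with earlier results of these data known. Of 100 other pathway genes listed, 99 were matched, 1 of them through an older symbol; a further gene is not reported here and is left out of its list's counts and medians. Genes given with all statistics were Adgrg1, up to 14 called members per vector effect (or the 4 most abundant where fewer than 4 passed), Atf4, the 4 members with the smallest p for the difference, up to 10 called members between the lines, and up to 2 called genes each way per pathway list with at least 10 CPM. All members have their TS/A values given. Promoters shown are those of the 4 members with an upstream element and the largest 4T1 change, plus Hspa5 and Herpud1.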

Additional observations from a re-analysis of the deposited data

Results flagged for a closer look

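The effect of the vector label on Adgrg1 itself differed between the lines. The log2 effect in TS/A minus that in 4T1 was -5.67 (adjusted p = 0.0203 by edgeR in the fit of all 8 libraries), Adgrg1 being higher in both 4T1 libraries with the Gpr56 vector and not in the TS/A libraries labelled with it. Groups of 2 libraries are too small for a check of single outlying samples.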

How the results depend on the processing

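With 2 libraries per group, leaving out a library leaves 1, which is assumed to vary like the other groups. Over the 4 fits that left out a 4T1 library, members lower numbered 10 to 15 (16 with all), members higher 1 to 3, genes called 1404 to 2746, and the median ran from -0.22 to -0.18. For TS/A, members higher ran from 0 to 16, genes called from 4 to 1146, and without TS/A empty library 1 the log2 fold changes of Hspa5, Phgdh and Psat1 reversed to -0.067, -0.17 and -0.14, against 0.30, 0.84 and 0.88 without TS/A empty library 2. For the difference, members higher ran from 0 to 22, members lower from 0 to 1, genes called from 0 to 2396 and the median from 0.38 to 0.66. Between the lines, members higher ran from 7 to 18, members lower from 4 to 8, genes called from 3336 to 7855 and the median from 0.18 to 0.44. In the fit of all 8 libraries, 0 members were higher and 0 lower in 4T1, with 27 genes called, and 1 gene was called in TS/A. With DESeq2, 1549 genes were called in 4T1, 3 in TS/A and 66 for the difference, 2 of them members that were higher. Without a filter on low counts, 4 genes were called in TS/A, the 4T1 median was -0.21, and 58 genes, 4 of them members that were higher, were called for the difference. With library totals in place of TMM the 4T1 median was -0.15 and 4 genes were called for the difference. For the difference, limma-voom called 0 genes, and 2 with a variance weight per line. Averaged over both vector labels, 23 members were higher in TS/A than in 4T1, with a median of 0.59. The cause of these changes was not tested. Groups share replicate numbers in the titles, but the labels give no shared batch. For want of a named batch the numbers were not taken as pairs. Same-numbered libraries' deviations correlated at -0.022 in 4T1 and 0.31 in TS/A over genes. Whether same-numbered TS/A libraries share a factor was not tested. With the replicate block, 3 members (Trib3, Aldh1l2 and Ddit4) were higher in TS/A, as were 0.177% of all genes, with 26 genes called, and 4 members were higher for the difference (0.142% of all genes), with 37 genes called, while the 4T1 counts stayed within 1.5 times. Depth limits Vldlr, Slc7a3 and, in 4T1, Aldh1l2.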
